A study of Homo sapiens with 2 samples.

Results

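Ubiquitin-conjugating enzymes, or E2s, and the deubiquitinases of the USP family work at opposite ends of the ubiquitin cycle. An E1 enzyme activates ubiquitin, an E2 carries it on its active-site cysteine, and an E3 ligase helps to pass it to a substrate, while USPs are cysteine proteases that remove ubiquitin or trim its chains. In cells with DNA damage, members of both families act on PCNA, FANCD2, histones H2A and H2B, and the p53 regulator MDM2. Most E2s are little more than their conserved catalytic fold, whereas many USPs carry long stretches outside the catalytic domain.

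The members were the genes whose symbol starts with UBE2 and a letter or with USP and a digit. Of the 112 symbols that matched, 25 near-identical USP17L copies were left out, together with 5 genes removed by name: UBE2C, UBE2S, UBE2L6, USP18 and USP9Y. This left 82 members among 19220 symbols, 50 of them USP and 32 UBE2 genes. A total of 75 were measured, meaning at least 100 counts summed over the libraries, 46 USP and 29 UBE2 genes. Some symbols match by name only: USP6NL, a GTPase-activating protein for Rab proteins, is no deubiquitinase although it was counted with the USPs, and UBE2Q2L has the name of a UBE2Q2-like gene. CDC34, an E2 of the cullin-RING ligases, lies outside the name pattern.

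Both libraries were made from poly(A)-selected RNA of H9, an established human T cell lymphoma line that the labels give as wild type, grown in RPMI medium with fetal bovine serum. There was 1 library of cells exposed for 6 h to 0.05 µM doxorubicin, an anthracycline drug that poisons topoisomerase II, and 1 library of untreated cells at 0 h. The library titles carry the final digits 2 (doxorubicin) and 1 (untreated), and no source used here says what these mean. With 1 library per condition there is no replicate check and no test, and higher and lower compare these 2 libraries.

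The doxorubicin library held 50174434 counts assigned to genes and the untreated library 33730703, a ratio of 1.49. Log2 ratios below are doxorubicin over untreated after TMM scaling, which corrects for depth and composition, and ranges in parentheses after a ratio are 95% intervals for counting error only. A gene was called higher or lower when it differed by at least 1.5-fold and the interval left out a ratio of 1. Of 11244 measured genes, 7.26% were called higher and 9.57% lower, and the median log2 ratio was 0.007. In RNA from bulk cells, fewer cells of a type and less RNA per cell cannot be told apart. Of 10 T cell markers, 8 were measured, of which CD3G was called higher, 0 were lower and 7 were neither. Their log2 ratios ran from -0.58 for CD3D, with 7431 counts with doxorubicin and 7122 untreated, to 1.11 for CD3G, with 3134 counts with doxorubicin and 931 untreated, while CD2 and CD7 had at most 8 counts in either library. The B cell gene CD79A, with 6628 counts with doxorubicin and 6007 untreated, the epithelial gene EPCAM and the fibroblast gene COL1A1 were also measured, and their part in the results was not tested.

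The members spanned levels from near 0 to those of abundant mRNAs. Levels were set on the scale of CPM per kb, the reads of a gene as a share of its library divided by transcript length in kilobases. The highest level with doxorubicin was that of UBE2M, the E2 for the ubiquitin-like protein NEDD8, at 84.4 CPM per kb with doxorubicin and 110.7 CPM per kb untreated. UBE2T, the E2 of the Fanconi anemia pathway, was at 80.5 CPM per kb with doxorubicin and 110.4 CPM per kb untreated. USP22, the deubiquitinase of the SAGA coactivator complex, followed at 77.7 CPM per kb with doxorubicin and 61.6 CPM per kb untreated, and USP39, a splicing factor, at 74.8 CPM per kb with doxorubicin and 74.6 CPM per kb untreated. At the low end, USP6, a primate-specific USP, was at 0.198 CPM per kb with doxorubicin and 0.258 CPM per kb untreated, and 17.5% of its sampled 50-base stretches occur in other genes. UBE2M and UBE2T thus lay below the line of equal levels and USP22 above it. Levels per kb rest on 1 annotated transcript per gene.

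**Figure D1:**
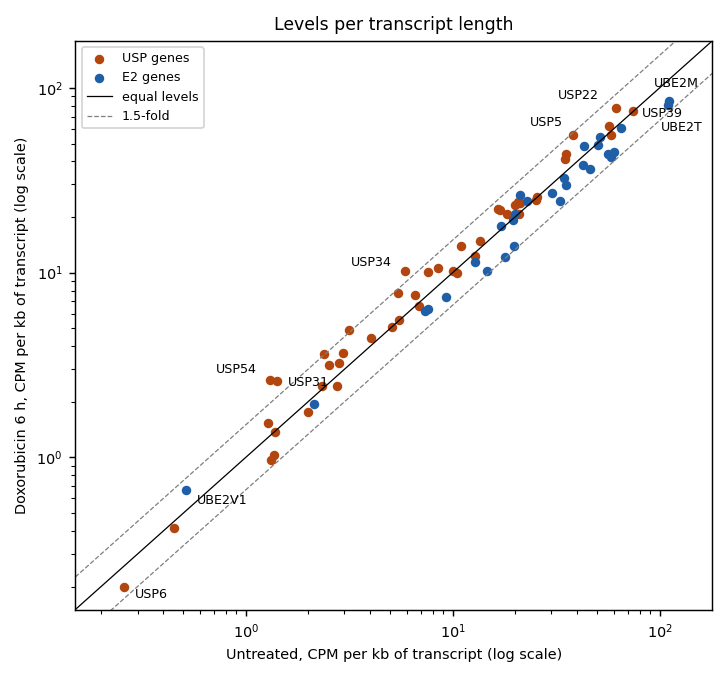
Level of each measured member in the doxorubicin library (vertical axis) against the untreated library (horizontal axis), both in CPM per kb of transcript on log scales, for 46 USP and 29 E2 genes. The solid line marks equal levels and the dashed lines 1.5-fold differences. USP54, USP31 and USP34 sit above the upper dashed line, and UBE2M and UBE2T sit below the line of equal levels.

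Of the 7 members that were not measured, USP2, which acts on MDM2 and cyclin D1, had 40 counts with doxorubicin and 36 untreated. UBE2Q2L had 2 counts with doxorubicin and 1 untreated. USP26, USP29, USP50, UBE2QL1 and UBE2U had 0 counts in each library, and a count of 0 leaves room for up to 0.0584 CPM with doxorubicin and 0.0911 CPM untreated. UBE2NL and USP41 were not analysed here.

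The family medians lay on opposite sides of equality before any adjustment for gene length. Of 46 USPs, 5 were higher with doxorubicin (10.9%, against 7.26% of all genes), 0 were lower and 41 were neither. Of 29 E2s, 0 were higher and 0 were lower, against 9.57% of all genes called lower. The median log2 ratio was 0.18 for USPs (interquartile range -0.02 to 0.33), -0.17 for E2s (-0.39 to -0.03) and 0.007 for all genes, so the USP median lay 0.35 above the E2 median. Ratios above 0 were found for 32 of 46 USPs and 7 of 29 E2s, against 50.7% of all genes. Under total-count scaling, which adds 0.07 to every log2 ratio, the medians were 0.25 for USPs and -0.10 for E2s. The ranges overlapped, from -0.46 to 0.99 for USPs and from -0.55 to 0.37 for E2s.

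The count of 0 lower E2s depends on which genes the name rule leaves out. UBE2C, an E2 of the anaphase-promoting complex, had 5102 counts with doxorubicin and 5738 untreated and was 1.75-fold lower (1.69 to 1.82), but at a log2 ratio of -0.28 and not called after the adjustment for lengths and GC content described below. UBE2S, which extends chains for the same ligase, had 14845 counts with doxorubicin and 16820 untreated and was 1.77-fold lower (1.73 to 1.81), and it stayed past the limit after adjustment, at -0.74. CDC34 had 3808 counts with doxorubicin and 3867 untreated, 1.58-fold lower (1.51 to 1.66), and was at -0.17 and not called after adjustment. With UBE2C, UBE2S, UBE2L6 and USP18 added, 2 of 32 E2s were lower, against 9.57% of all genes, and the E2 median was -0.21.

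Summed over members, USP mRNAs came to 3637 CPM with doxorubicin and 3117 CPM untreated, a log2 ratio of 0.22 (0.21 to 0.23). The E2 mRNAs came to 2609 CPM with doxorubicin and 2934 CPM untreated, a log2 ratio of -0.17 (-0.18 to -0.16). E2 reads per USP read were therefore 0.717 with doxorubicin and 0.941 untreated. These sums are weighted by abundance and by transcript length.

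**Figure D2:**
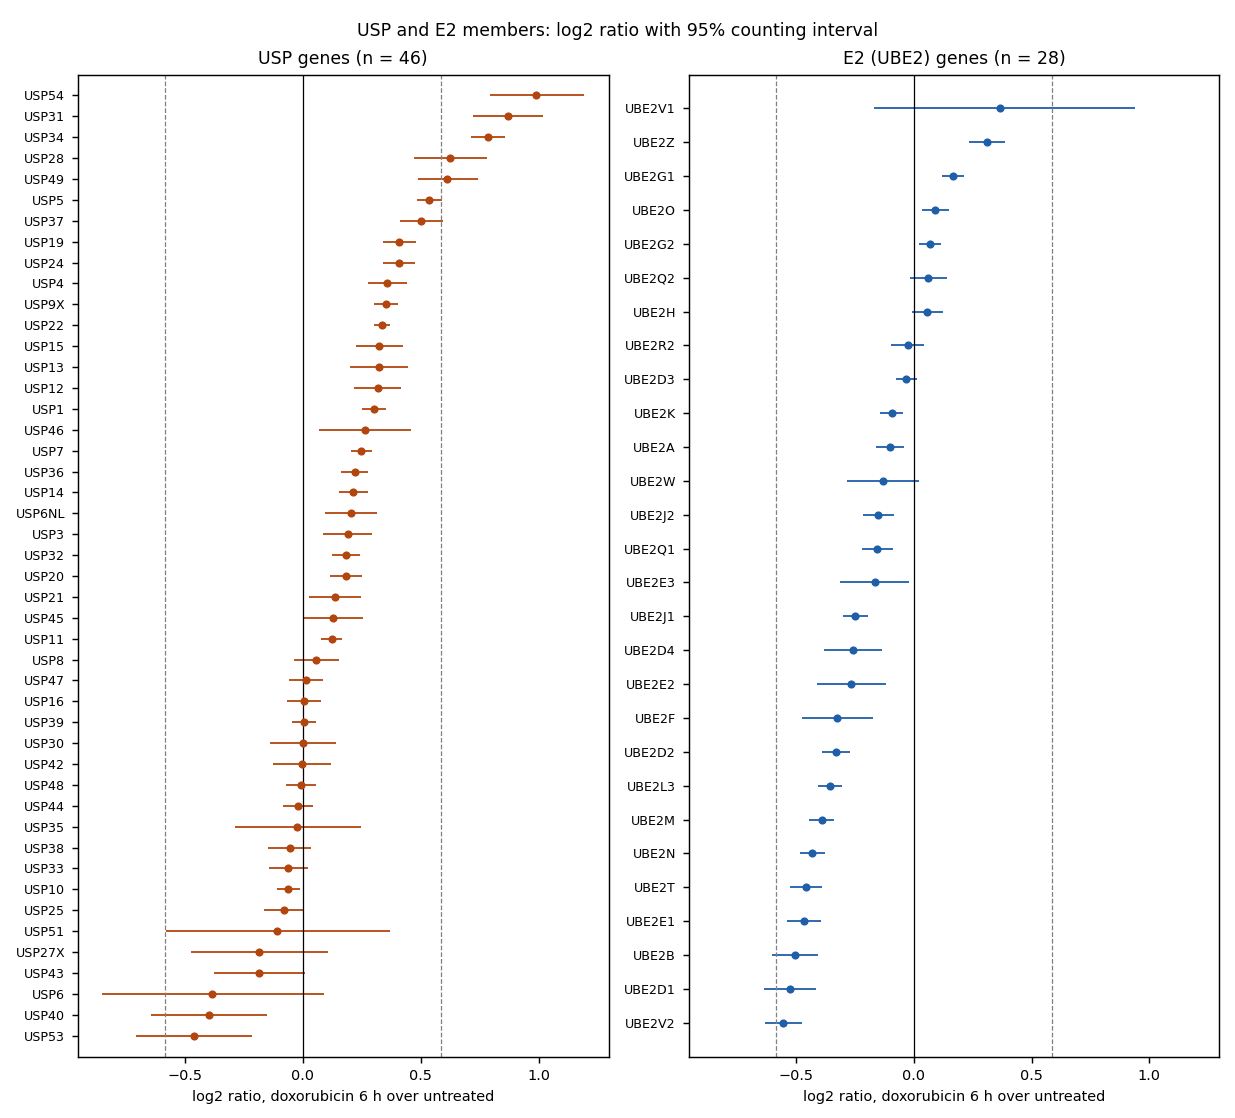
Log2 ratio of doxorubicin 6 h over untreated for the 46 measured USPs and 28 of the 29 measured E2s, in separate panels, with bars for the 95% counting interval. Solid vertical lines mark equal levels and dashed lines the 1.5-fold limits. The 5 USPs past the limit run from 0.61 to 0.99, and no E2 shown passes it.

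Among USPs that act on chromatin and in DNA damage, 2 of 14 were higher (14.3%, against 7.26% of all genes) and 0 lower, with a median log2 ratio of 0.12. After adjustment 0 of 14 were called and the median was 0.004. USP28, which stabilizes MYC and binds the damage-response protein 53BP1, had 1168 counts with doxorubicin and 486 untreated and was 1.54-fold higher (1.39 to 1.72). USP49, for which histone H2B is a known substrate, had 1692 counts with doxorubicin and 709 untreated and was 1.53-fold higher (1.40 to 1.67). These were the called members nearest to the limit. USP1, which removes ubiquitin from PCNA and FANCD2, had 8968 counts with doxorubicin and 4666 untreated, a log2 ratio of 0.30 (0.25 to 0.35), and was not called. USP22 had 20840 counts with doxorubicin and 10601 untreated, at 0.33 (0.30 to 0.37). USP11 had 10675 counts with doxorubicin and 6292 untreated, at 0.12 (0.08 to 0.17). The other 9 members of the group lay between -0.19 and 0.19, among them USP3 and USP16, which act on histone H2A, at 0.19 and 0.006.

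Of the 5 measured USPs with known roles toward p53 or MDM2, 0 were called, against 7.26% higher and 9.57% lower of all genes. Their median was 0.25. After adjustment it was -0.08, with 4 of 5 below 0. USP7, which removes ubiquitin from MDM2 and p53, had 11499 counts with doxorubicin and 6214 untreated, a log2 ratio of 0.25 (0.20 to 0.29). USP10, a p53 deubiquitinase that binds the stress granule protein G3BP1, had 8626 counts with doxorubicin and 5775 untreated, at -0.06 (-0.11 to -0.01), and under total-count scaling its ratio turns positive. A share of 17.6% of its sampled stretches occurs in other genes.

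Proteasome and free-chain USPs were a group of 3 with a median of 0.32. Of these, 0 were called, against 7.26% higher and 9.57% lower of all genes. After adjustment the median was 0.17, with 2 of 3 above 0. USP5, which disassembles unanchored ubiquitin chains, had 9029 counts with doxorubicin and 3993 untreated, a log2 ratio of 0.54 (0.48 to 0.59), just short of the 1.5-fold limit. USP14, which is bound to the proteasome, had 6098 counts with doxorubicin and 3373 untreated, at 0.21 (0.15 to 0.28). USP13, the paralog of USP5, was at 0.32. All 3 lay above 0 before adjustment.

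The highest ratios belonged to long genes of several roles. USP54 had 837 counts with doxorubicin and 270 untreated and was 1.99-fold higher (1.73 to 2.29). With USP39 and USP53, it is one of 3 members long classed as catalytically inactive, and the other 2 were not called, USP39 at 0.004 (-0.05 to 0.05) from 8367 counts with doxorubicin and 5351 untreated, and USP53 at -0.46 (-0.71 to -0.22), the lowest ratio of the family. USP31 had 1427 counts with doxorubicin and 501 untreated and was 1.83-fold higher (1.65 to 2.03). A share of 25.4% of its sampled stretches occurs in another gene, so its counts are less certain. USP34, which acts on axin in Wnt signalling, had 5944 counts with doxorubicin and 2212 untreated and was 1.72-fold higher (1.64 to 1.81). It was the only called member of 7 signalling and cell cycle USPs (14.3%, against 7.26% of all genes called higher), whose median was 0.32. After adjustment 0 of 7 were called and the median was -0.08. In that group USP9X, a deubiquitinase of MCL1 among many substrates, had 8915 counts with doxorubicin and 4478 untreated, at 0.35 (0.30 to 0.41). USP36, a nucleolar USP, had 7217 counts with doxorubicin and 3975 untreated, at 0.22 (0.16 to 0.28). USP37 was the next member below USP5, at 0.50 from 3191 counts with doxorubicin and 1444 untreated, and another gene overlaps 32.8% of its exons.

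Membrane, receptor and organelle USPs numbered 10, with a median of 0.12. They held 0 calls, against 7.26% higher and 9.57% lower of all genes. After adjustment the median was -0.14, with 7 of 10 below 0 and 1 called lower (10%, against 3.58% of all genes). USP19, an isoform of which is anchored in the endoplasmic reticulum, had 5330 counts with doxorubicin and 2573 untreated, at 0.41 (0.34 to 0.48). USP32 had 6358 counts with doxorubicin and 3590 untreated, at 0.18 (0.12 to 0.24), with 29.3% of its stretches shared with other genes. USP8, an endosomal USP that acts on receptors, was at 0.06 (-0.04 to 0.15) and USP30, of the mitochondrial outer membrane, was at 0.0004 (-0.14 to 0.14). The remaining small group of 3 other USPs held USP31 above, USP43 at -0.19 from 521 counts with doxorubicin and 380 untreated, and USP40 at -0.40 from 299 counts with doxorubicin and 253 untreated.

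Among the broad-acting E2s, 0 of 10 were called, against 7.26% higher and 9.57% lower of all genes. Ratios below 0 were found for 9 of 10, against 49.3% of all genes, with a median of -0.26. UBE2D3 was above 0 under total-count scaling. After adjustment 6 of 10 were below 0 and the median was -0.02. The UBE2D enzymes, which serve many RING ligases and encode proteins of 147 residues each, were spread widely. UBE2D1 had 1396 counts with doxorubicin and 1288 untreated, a log2 ratio of -0.52 (-0.63 to -0.41). UBE2D2 had 5073 counts with doxorubicin and 4086 untreated, at -0.33 (-0.39 to -0.27). UBE2D3 had 10503 counts with doxorubicin and 6888 untreated, at -0.03 (-0.08 to 0.01), and UBE2D4 had 1258 counts with doxorubicin and 965 untreated, at -0.26. Only the interval of UBE2D3 included equality. Together the 4 genes had 18230 counts with doxorubicin and 13227 untreated, a log2 ratio of -0.18 (-0.21 to -0.15). UBE2L3, which works with HECT and RBR ligases, had 6856 counts with doxorubicin and 5629 untreated, at -0.36 (-0.41 to -0.31).

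The E2s of K63 chains and DNA damage had the lowest median before adjustment, -0.44. Of these 6, 0 were called, against 7.26% higher and 9.57% lower of all genes. After adjustment 3 of 6 were above 0 and 1 was called higher (16.7%, against 4.16% of all genes). The median was then -0.03 and no longer the lowest. The 3 large and other E2s then had a median of -0.25. UBE2N, which builds K63-linked chains, had 6537 counts with doxorubicin and 5650 untreated, at -0.43 (-0.48 to -0.38), and 39.5% of its exons are overlapped by another gene. UBE2V2, an inactive partner of UBE2N, had 2733 counts with doxorubicin and 2572 untreated, at -0.55 (-0.63 to -0.48), the lowest ratio of the family and just inside the 1.5-fold limit. UBE2V1, the other partner, had 87 counts with doxorubicin and 43 untreated, at 0.37 (-0.17 to 0.94). A share of 81.0% of its stretches occurs in other genes, and 42.9% of its exons are overlapped by other genes. The read-through gene TMEM189-UBE2V1 was listed at 0 counts in both libraries, so little can be read from the value of UBE2V1. UBE2A and UBE2B, the human RAD6 enzymes that monoubiquitinate PCNA and H2B, parted: UBE2A had 5837 counts with doxorubicin and 4015 untreated, at -0.10 (-0.16 to -0.04), and UBE2B had 1797 counts with doxorubicin and 1635 untreated, at -0.50 (-0.60 to -0.41). Their intervals did not overlap, though 18.1% of the exons of UBE2A are overlapped by another gene. UBE2T, which monoubiquitinates FANCD2, the mark that USP1 removes, had 3754 counts with doxorubicin and 3303 untreated, at -0.46 (-0.52 to -0.39). The intervals of UBE2T and of USP1, at 0.30, lay on opposite sides of 0 before adjustment. After adjustment both genes were above 0, UBE2T at 0.08 and USP1 at 0.22.

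For E2s of ubiquitin-like proteins, 0 of 4 were called, against 7.26% higher and 9.57% lower of all genes. UBE2M had 6539 counts with doxorubicin and 5498 untreated, at -0.39 (-0.44 to -0.34), with 10.2% of its stretches shared with a pseudogene. The other NEDD8 E2, UBE2F, was at -0.33 from 810 counts with doxorubicin and 651 untreated. It has 23.8% of its stretches shared and 16.2% of its exons overlapped by other genes. UBE2Z, which is charged by the E1 enzyme UBA6, stood apart at 0.31 (0.24 to 0.39) from 4217 counts with doxorubicin and 2181 untreated. After adjustment UBE2M was at 0.15, UBE2F at -0.03 and UBE2Z at 0.21.

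E2s of K48 chains and of degradation at the endoplasmic reticulum had a median of -0.06, or 0.05 after adjustment. Of these 6, 0 were called, against 7.26% higher and 9.57% lower of all genes. UBE2G1, which extends chains on substrates of cullin-RING ligases, had 9851 counts with doxorubicin and 5632 untreated, at 0.17 (0.12 to 0.21). UBE2G2, of endoplasmic reticulum degradation, had 9943 counts with doxorubicin and 6077 untreated, at 0.07 (0.02 to 0.12). Its membrane-anchored counterpart UBE2J1 was at -0.25. Among the 3 large and other E2s, UBE2O, which joins E2 and E3 functions in 1 protein, had 6832 counts with doxorubicin and 4113 untreated, at 0.09 (0.03 to 0.15), and UBE2Q1 had 4466 counts with doxorubicin and 3190 untreated, at -0.16.

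The USP and E2 genes differ in length, and across all genes the ratio was larger for longer ones. The median coding length was 2872.5 bases for USPs (1098 to 10638), 549 bases for E2s (435 to 3876) and 1380 bases for all measured genes. Transcripts differed less, with medians of 5195.5 bases for USPs, 3130 for E2s and 3252.5 for all genes, and the median 3′ untranslated region was 1736 bases in USPs and 1965 in E2s. Spearman's rho between ratio and coding length was 0.514 over the 75 members and 0.519 over 11207 genes. Within families it was 0.112 over 46 USPs and 0.431 over 29 E2s. With transcript length it was 0.341 over USPs, 0.331 over E2s and 0.552 over all genes. Genes of 1 library pair are not independent, so these values are descriptions.

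**Figure D3:**
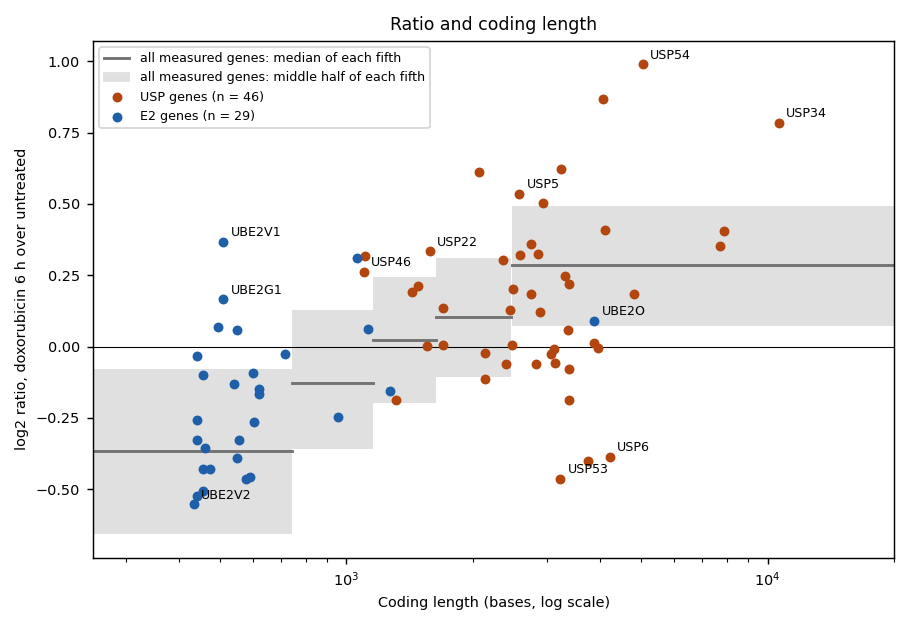
Log2 ratio of doxorubicin 6 h over untreated against coding length in bases on a log scale, for 46 USP and 29 E2 genes. Grey lines are medians of all measured genes in 5 equal bins of coding length and grey boxes span their interquartile range, rising from a median of -0.37 to one of 0.28. Of the USPs, 10 lie above their box, 22 within and 14 below, and of the E2s, 7 lie above, 22 within and 0 below. In the longest bin 6 of 31 USPs lie above the box, among them USP54 and USP34, and 13 below it, among them USP53 and USP6.

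Set against genes of like coding length, the place of each family depended on the bin. In the shortest of 5 equal bins, up to 744 coding bases, the 24 E2s there had a median of -0.26 and all genes one of -0.37. In the longest bin, from 2466 bases, the 31 USPs had a median of 0.18 and all genes one of 0.28. The single E2 in that bin, UBE2O, was at 0.09. In the second bin, which held members of both families, USP12 and USP46, which share the partner WDR48, were at 0.32 and 0.26. The 3 E2s of that bin had a median of 0.06 and all its genes one of -0.13. Both USPs and the E2 median lay above that value, while UBE2J1, among the 3 E2s, lay below it at -0.25. The third bin held 5 USPs with a median of 0.19 and 1 E2 at -0.16, beside 0.02 for all its genes. Among genes with transcripts of 3000 to 4500 bases, 12 USPs had a median of 0.003, 12 E2s one of -0.09 and all 2721 genes one of 0.06.

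The members with the longest and shortest transcripts were not those with the highest and lowest ratios. The longest USP transcripts were those of USP8 (19026 bases) and USP15 (14950 bases), with log2 ratios of 0.06 and 0.32, and the shortest those of USP39 (2177 bases) and USP21 (2342 bases), at 0.004 and 0.14. Among E2s, UBE2W (8426 bases) was at -0.13 and UBE2O (5436 bases) at 0.09, while UBE2T (908 bases) was at -0.46 and UBE2M (1508 bases) at -0.39.

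The log2 ratios were then adjusted for GC content and for the lengths of transcript and coding sequence, with curves fitted over 11196 genes. The adjusted median was -0.04 for USPs, -0.003 for E2s and -0.009 for all genes. The difference of USP minus E2 medians was then -0.04, against 0.35 before. By the same size rule 0 USPs were higher and 3 were lower, against 4.16% of all genes called higher and 3.58% called lower. The 3 were USP6 at -0.83, USP40 at -0.76 and USP53 at -0.59, and USP6 rests on 86 counts with doxorubicin and 72 untreated. Of E2s, UBE2V1 was higher at 0.63, with the sharing described above, and 0 were lower. The 5 USPs higher before adjustment remained above 0 but within the limit, USP54 at 0.55, USP31 at 0.44, USP28 at 0.41, USP34 at 0.29 and USP49 at 0.26. USP5 was at 0.37 and USP1 at 0.22. Among E2s, UBE2N at -0.31 stayed below 0, whereas UBE2A was at 0.30, UBE2M at 0.15, UBE2T at 0.08 and UBE2D1 at -0.003. Which of length and family goes with the ratio cannot be told apart for most members, since 24 of 29 E2s and 0 of 46 USPs lie in the shortest bin of coding length.

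**Figure D4:**
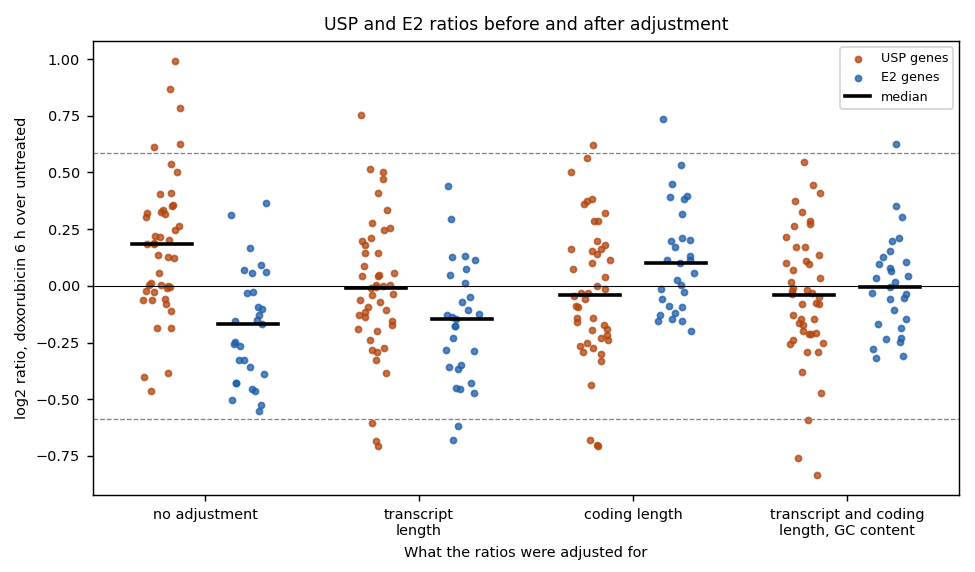
Log2 ratios of doxorubicin 6 h over untreated for USP and E2 members without adjustment and with adjustment for transcript length, for coding length, and for both lengths with GC content, 1 point per gene with the family median as a line. The medians of 0.18 for USPs and -0.17 for E2s become -0.04 and -0.003 under the last of these.

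Other genes of the ubiquitin cycle were read beside the members. Of 9 measured E1 enzymes 0 were called, against 7.26% higher and 9.57% lower of all genes. Their median was 0.13, or -0.003 after adjustment. UBA1, the main ubiquitin E1, had 22343 counts with doxorubicin and 10703 untreated, at 0.42 (0.39 to 0.45). UBA3, the catalytic subunit of the NEDD8 E1, was at -0.43 and its partner NAE1 at -0.19, beside UBE2M at -0.39. After adjustment UBA3 was at -0.24, NAE1 at -0.003 and UBE2M at 0.15. The SUMO E1 subunits SAE1 and UBA2 were at 0.21 and -0.15, or 0.24 and -0.29 after adjustment.

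Among genes that encode ubiquitin precursors, the polyubiquitin gene UBB had 3476 counts with doxorubicin and 3207 untreated, at -0.52 (-0.59 to -0.46), with 22.9% of its stretches shared. RPS27A, a fusion of ubiquitin to a ribosomal protein, with 34.1% of its stretches shared, was at -0.31, and after adjustment it was at 0.22. Neither was called.

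Deubiquitinases of other families had 2 of 30 measured members higher and 2 lower, 6.67% in each direction against 7.26% higher and 9.57% lower of all genes, with a median of 0.11. FAM63A, now named MINDY1, had 233 counts with doxorubicin and 65 untreated and was 2.29-fold higher (1.74 to 3.08), and it remained past the limit after adjustment, at 1.09. OTUD3 was 1.56-fold higher (1.40 to 1.76) and JOSD2 1.65-fold lower (1.48 to 1.83) with adjusted log2 ratios of 0.43 and 0.09. UCHL3 was called lower at a log2 ratio of -0.70 (-0.81 to -0.59), or -0.13 after adjustment, and shares 43.9% of its stretches with other genes.

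Of 7 known USP partners 1 was lower (14.3%, against 9.57% of all genes) and 0 were higher, against 7.26%. Their median was 0.20, or 0.05 after adjustment, when 0 were called. ENY2, a small subunit of the deubiquitinase module of USP22, had 1238 counts with doxorubicin and 1405 untreated and was 1.77-fold lower (1.64 to 1.91), while USP22 was at 0.33 and ATXN7L3, of the same module, at 0.002. After adjustment ENY2 was at -0.37, within the limit. WDR48, the activator of USP1, USP12 and USP46, had 2522 counts with doxorubicin and 1284 untreated, at 0.33 (0.24 to 0.43). Those enzymes were at 0.30, 0.32 and 0.26. WDR20, another gene of the partner list, went the other way, at -0.24 (-0.37 to -0.11) from 1124 counts with doxorubicin and 850 untreated. Whether partners and enzymes change together was not tested. GMPS, which binds USP7, was at 0.31, and G3BP1 at 0.20.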

How the data were processed

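The authors deposited a table of raw read counts, 1 whole number per gene symbol and library, without scaling or length correction. The submitters' processing notes name HISAT2, featureCounts and hg19. No source used here gives versions, the annotation, the strand setting or how multimapping reads were handled, so counts of overlapping or shared genes are less certain. All count columns belonged to the 2 libraries.

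Counts were scaled with TMM (edgeR 4.0.16, R 4.3.3) and 0.5 was added for log2 ratios. Exact Clopper-Pearson 95% intervals cover counting error only, since 1 library per condition gives no spread between cultures. PCR copies of 1 molecule cannot be recognised in these counts, so the intervals may be too narrow even for counting error. A count of 0 was read as up to 3 counts. With 1 library per condition no p-value was computed. The steps were tested on simulated data.

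Lengths and GC content came from GENCODE release 29, built on another assembly, so no coordinates are given. The longest transcript paired with RefSeq was used, and 11207 of 11244 measured genes matched (99.7%). Overlap is the share of exons overlapped by other genes and sharing the share of 50-base stretches, sampled every 25 bases, found in other genes. Both are marked from 10% for measured members and genes of the pathway lists. Neither was computed for UBE2C, UBE2S and CDC34. The adjustment used splines with 5 knots (scikit-learn 1.9.0), and lowess curves had a span of 0.3 (statsmodels 0.14.6).

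The members, role groups and pathway lists were chosen with earlier results of these data known. Named were members past the size rule, the 2 with the most counts per role group, fixed members of DNA damage and UBE2D roles, the longest and shortest transcripts of each family, those next to the limit, and pathway genes past the size rule with UBA1, UBB and WDR48. Some genes that this rule takes are not reported here. Other named genes were picked after their values were seen, as partners or extremes of a group. Alternatives used the size factors of DESeq2 1.42.0, total counts, other count minimums, limits, intervals and added counts, and the length adjustments.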

Additional observations from a re-analysis of the deposited data

How the results depend on the processing

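No paired analysis was possible because each condition had 1 library. Scaling by DESeq2 size factors or total counts, lower and higher count minimums or none, a 99% interval, 2 added to each count, and leaving out USP6NL or the members that overlap or share at least 10% kept the family medians on their sides of 0 and each count within 1.5 times. At the lower fold limit tried, 13 of 46 USPs were higher and 2 lower, and 11 of 29 E2s were lower, against 20.4% higher and 21.5% lower of all genes, while at a limit of 2-fold 0 USPs were higher, against 1.14%. Adjusted for transcript length alone, 1 USP was higher and 3 lower, 2 E2s were lower, against 4.94% higher and 4.66% lower of all genes. The USP median was then -0.0078, the E2 median -0.15 and their difference 0.14, against 0.35 without adjustment. Adjusted for both lengths and GC content, 0 USPs were higher, 3 lower and 1 E2 higher, against 4.16% higher and 3.58% lower of all genes. The USP median was then -0.042, the E2 median -0.0032 and their difference -0.039. Over members in the shared transcript length range of 2177 to 8426 bases, 2 of 37 USPs were higher (5.41%). The share of 7.26% is over all genes of any length, so these shares come from unlike sets. The difference of medians was 0.28. Alternatives chosen after seeing the data were adjustment for coding length, with 1 USP higher, 3 lower, 1 E2 higher, medians of -0.039 for USPs and 0.102 for E2s, and a difference of -0.14 (all genes 5.6% higher and 4.38% lower), and adjustment for the median length of a gene's coding transcripts, with 4 USPs higher, 2 USPs and 1 E2 lower, and a difference of 0.28 (all genes 6.4% higher and 7.44% lower). With UBE2C, UBE2S, UBE2L6 and USP18 added, also chosen after seeing the data, 2 of 32 E2s were lower, against 9.57% of all genes. Leaving out USP6NL and leaving out overlapping members were chosen then as well. The spread between cultures was not measured. The counting intervals of USP6 and UBE2V1 span both sides of equality, so differences within them were not detectable at this depth.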
